A study of Homo sapiens with 28 samples.

Results

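The 40 genes described here are those of a fixed list of nucleolar ribosome biogenesis genes, picked by symbol from a table of 30887 rows, and each of the 40 symbols was found on 1 row that entered the tests. They were measured in Kelly cells, an established neuroblastoma line with amplification of MYCN, 48 h after reverse transfection. The 7 groups of 4 libraries each received 25 nM of a synthetic double-stranded microRNA mimic or of the scrambled control, with the same lipid reagent, and the mimics were of miR-485-3p, miR-380-3p, miR-99b-5p, miR-1915-3p, miR-1283 and miR-100-3p. All groups are a single cell line, and a transfected mimic models an added microRNA, not the loss or the natural level of one. Nothing in the labels ties replicates to separate cultures, and p-values here cover only the spread between libraries, which may be technical.

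Ribosomes are built in the nucleolus, where RNA polymerase I copies the ribosomal DNA into a long precursor RNA. Small nucleolar ribonucleoproteins modify that precursor, and a large processome and a series of assembly factors cut and fold it into the small and large subunits. The MYC family of transcription factors is known to drive many of these genes, and in neuroblastoma that factor is often MYCN. A microRNA represses messenger RNAs mainly by pairing of its seed, bases 2 to 8, with the 3′ untranslated region (UTR). The list holds 5 genes of RNA polymerase I transcription, 11 of the box C/D particles and the small subunit processome, 3 of the box H/ACA particles, 5 nucleolar shuttling and structural proteins, 11 large subunit factors and 3 of the rixosome. Its last 2 genes, PTMA and ODC1, are growth genes linked to MYC whose products are not ribosome assembly factors.

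The mature sequences of the 6 mimicked microRNAs, credited to RefSeq (GRCh38.p14), are shown because their seeds, in capitals, set which members can pair with them. No seed was shared between mimics.
miR-99b-5p: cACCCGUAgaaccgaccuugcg
miR-380-3p: uAUGUAAUaugguccacaucuu
miR-485-3p: gUCAUACAcggcucuccucucu
miR-100-3p: cAAGCUUGuaucuauagguaug
miR-1915-3p: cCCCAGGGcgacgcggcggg
miR-1283: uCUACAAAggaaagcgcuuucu

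Of the members that fell under a mimic, 5 had a match to that mimic's seed in the longest annotated 3′ UTR (GENCODE v29, GRCh38). These 6 matches are shown 5′ to 3′ in the sense of the messenger RNA, as DNA letters, with the bases complementary to the seed in capitals. The RRN3 match lay at chr16:15061393-15061399 on the minus strand and the PTMA match at chr2:231713380-231713386 on the plus strand. The DDX21 match lay at chr10:68983037-68983043 on the plus strand and the URB2 match at chr1:229659531-229659537 on the plus strand. WDR12 had a pair of matches on the minus strand, the first at chr2:202880790-202880796 and the other at chr2:202878749-202878755. The matches of DDX21, URB2 and the first of WDR12 were followed by an A, a feature known to go with stronger repression. The RRN3 match is in 1 of 5 coding transcripts, the PTMA match in 2 of 7 and the URB2 match in 1 of 2, whereas DDX21 and WDR12 carry theirs in every coding transcript.
RRN3 with miR-99b-5p: gcagactgtttTACGGGTtgctgttttaa
PTMA with miR-485-3p: agtagttggttTGTATGAgatggttaaaa
DDX21 with miR-485-3p: cttttgaaaggTGTATGAattcattacat
URB2 with miR-1915-3p: ctgaaaattgaCCCTGGGatgagattaat
WDR12 with miR-380-3p, first: agaaccatgaaATTACATagatgcagatg
WDR12 with miR-380-3p, other: tattagatggtATTACATctcaaatgatg

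Each library held between 10.99 and 23.3 M expected counts (median 15.0 M). The 8 adrenergic neuroblastoma markers summed here (PHOX2A, HAND2, GATA3, ISL1, TH, DBH, CHGA and MYCN) were all present and summed to between 7111 and 13250 CPM, read counts scaled to a common library size, in each library. Of 12 markers of blood, endothelium, fibroblasts and epithelium, 9 had a row and 3 reached a mean of 1 CPM. Their sum was 12.8 to 15.6 CPM in the controls and 6.99 to 8.36 CPM under miR-99b-5p. The part of this difference in the results below was not tested. The levels below are CPM on effective library size, and a log2 change is the difference of the fitted mean from the control. A gene was called where the adjusted p of edgeR's quasi-likelihood test over 15058 genes was under 0.05.

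As a list, the members stayed close to the controls. The median log2 change of the 40 was 0.0034 under miR-99b-5p, 0.0098 under miR-380-3p, 0.053 under miR-485-3p, -0.010 under miR-100-3p, 0.018 under miR-1915-3p and 0.011 under miR-1283. The medians over all tested genes were -0.0026, -0.0028, 0.025, -0.0091, 0.0016 and -0.012 in the same order. Between 34 and 40 of the 40 members lay within 0.25 of no change under each mimic. The median standard error of a member's log2 change was 0.0785 to 0.0786 under the 6 mimics. Changes of that size, and some well above it, could not be told from 0 at this replication. The smallest called change of a member was 0.16 (NOP56 under miR-99b-5p), whereas 0.26 for BYSL under miR-485-3p was not called. Nor were -0.49 ± 0.30 (SE) for WDR18 under miR-100-3p and -0.49 ± 0.18 (SE) for BOP1 under miR-99b-5p. A member that was not called is thus not shown to be unchanged. In bulk samples, fewer cells and less RNA per cell cannot be told apart. Together the members took 1.13% ± 0.0061 (SD, n = 4) of all counts in the controls, 1.08% ± 0.058 under miR-485-3p and 1.18% ± 0.037 under miR-99b-5p.

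Single members did pass the test, and which were called varied with the mimic. Of 240 combinations of a member with a mimic, 17 were called, on 16 genes. Tested directly against the other 5 mimics, NOP56 differed from 2, and NOB1 and the rise of WDR12 from 3. FBL, NOLC1, POLR1B, ODC1, NIP7 and RRP9 differed from 4, and the other calls from all 5. NOP56 was also 0.18 higher under miR-1915-3p, where it was not called (edgeR adjusted p = 0.16). With miR-99b-5p, 1 member rose and 4 fell, or 12.5% of the list, beside 16.6% of all tested genes (8.11% higher, 8.48% lower). Without miR-99b-5p replicate 7 that count was 9, with POLR1C, FBL, NPM1 and BOP1 added. In that fit 1181 genes were called higher and 1311 lower of 15187 tested. With miR-485-3p, 5 rose and 2 fell (17.5%), beside 21.1% of all tested genes (10.5% higher, 10.6% lower). With miR-380-3p, 1 rose and 1 fell (5%), beside 10.9% (5.6% higher, 5.25% lower). With miR-100-3p 2 fell (5%), beside 5.96% (2.9% higher, 3.05% lower). With miR-1915-3p 1 member fell (2.5%), beside 0.246% (0.0133% higher, 0.232% lower). No member was called under miR-1283, beside 0.0199% of all genes, and none reached an unadjusted p under 0.05 there or was called by DESeq2 or limma-voom. Under 5 of the 6 mimics the share of members called was below that of all tested genes in this fit. A single member is 2.5% of the list, so the gaps under miR-100-3p and miR-1283 are smaller than 1 gene. The share under miR-1915-3p is set by a single gene. For miR-99b-5p the order was the reverse without its replicate 7 and in some of the alternative fits described at the end. The 6 comparisons share their 4 control libraries.

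**Figure D1:**
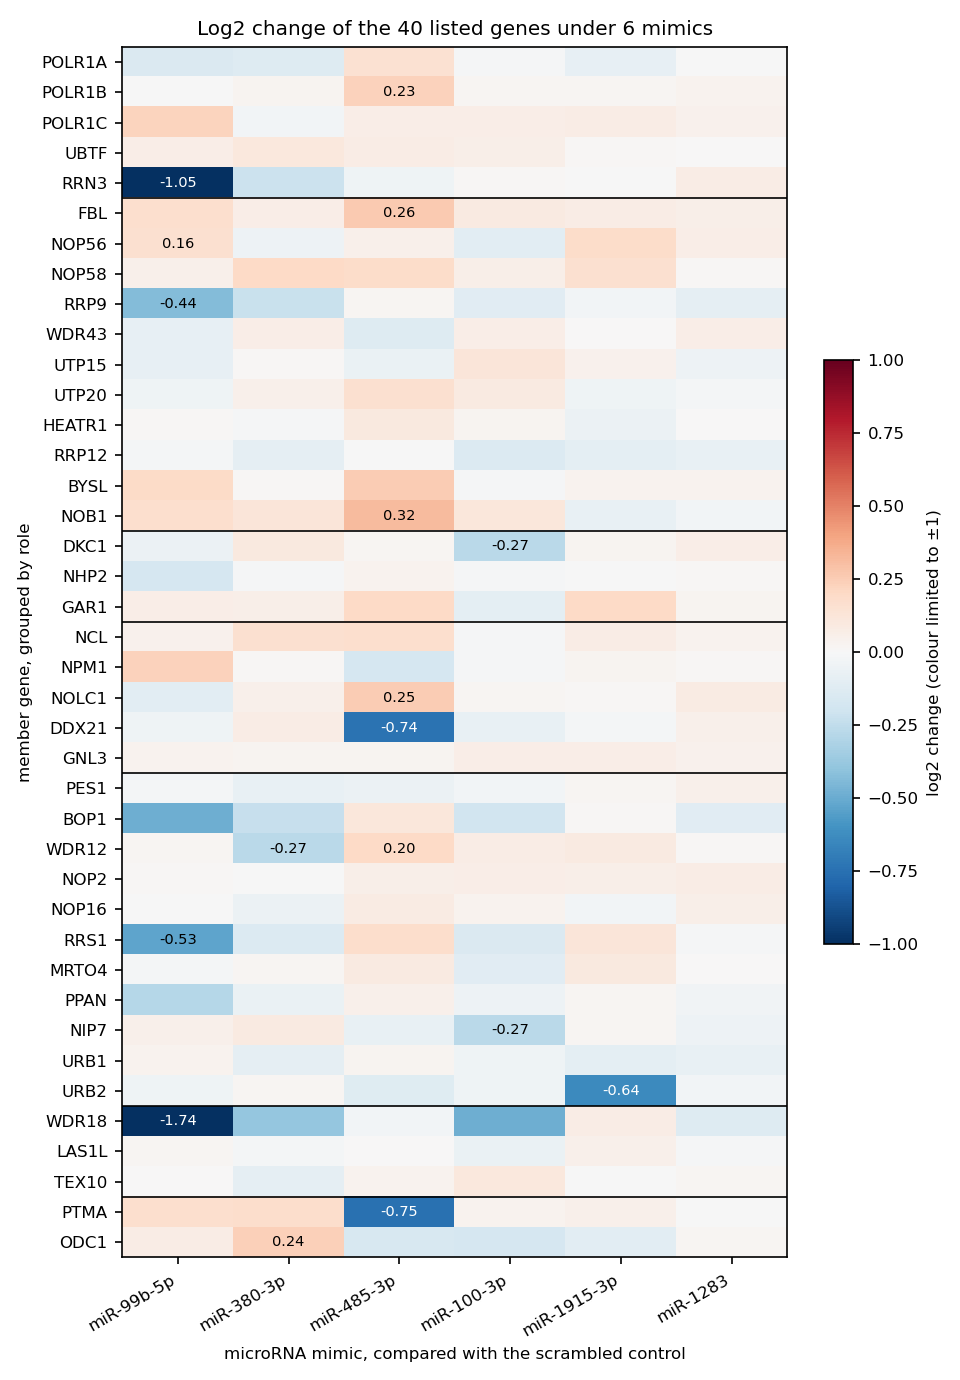
Log2 change of each of the 40 members (rows, grouped by role with black lines between groups) under each of the 6 mimics (columns) against the scrambled control, in colour limited to ±1. A number is printed where the member was called. 17 cells carry a number, and the deepest are WDR18 at -1.74 and RRN3 at -1.05, both under miR-99b-5p.

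Levels in the controls are compared per kilobase of the gene length in the table. They ran from 6.74 CPM per kb for URB1 to 2444 CPM per kb for NPM1, a histone-binding nucleolar chaperone. The acidic nuclear protein gene PTMA followed at 1305 CPM per kb and NCL, which encodes nucleolin, at 1055 CPM per kb. NOP56, FBL and ODC1 lay at 413, 389 and 347 CPM per kb. The lowest after URB1 were POLR1A at 10.2 and TEX10 at 10.8 CPM per kb.

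Within RNA polymerase I transcription, RRN3 fell under miR-99b-5p and the polymerase subunits did not. RRN3 (ENSG00000085721), the factor that brings the polymerase to the ribosomal promoter, measured 81.0, 80.7, 71.1 and 77.2 CPM in the controls and 38.8, 34.5, 37.0 and 39.0 CPM with the mimic. Every mimic library lay below every control, at about the same level. The log2 change was -1.05 ± 0.094 (SE, n = 4 each; edgeR adjusted p = 5.0e-09). RRN3 was also lower under miR-99b-5p than under each of the other 5 mimics, by log2 changes of -1.13 to -0.84 (largest adjusted p = 1.3e-07 by edgeR).

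RRN3 is the 1 member with a miR-99b-5p match in its UTR, the sequence printed above. Its 3 pseudogene copies RRN3P1, RRN3P2 and RRN3P3 are near-identical to it, so counts could be split between them. The summed level of the copies was 20.7 ± 1.2 CPM (SD, n = 4) in the controls and 20.05 ± 1.1 CPM under miR-99b-5p. The copies thus held 21.1% of RRN3 and copy counts in the controls and 35.1% with the mimic. Under the other 5 mimics RRN3 was not called, and its group means ran from 67.0 to 81.7 CPM.

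POLR1A and POLR1B encode the largest subunits of RNA polymerase I, POLR1C a subunit it shares with RNA polymerase III, and UBTF a factor that binds the ribosomal promoter. Under miR-99b-5p their log2 changes were -0.15, -0.0018, 0.22 and 0.069, and none was called. POLR1B rose under miR-485-3p by 0.23 ± 0.075 (adjusted p = 0.030 by edgeR), from 52.6 ± 1.9 to 61.5 ± 7.6 CPM (SD, n = 4). Its mimic libraries ran from 52.1 to 70.0 CPM and overlapped the controls. That call ended without control replicate 1 or 4 (log2 changes of 0.21 and 0.22) and without miR-485-3p replicate 3 or 5 (0.14 and 0.19). POLR1A and UBTF were called under no mimic.

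Among the box C/D particles and the small subunit processome, RRP9 fell under miR-99b-5p and 3 others rose under a mimic. RRP9, a protein specific to the U3 particle, measured 86.5, 95.1, 89.8 and 91.4 CPM in the controls and 60.0, 69.2, 66.7 and 71.8 CPM under miR-99b-5p. The groups did not overlap, and the log2 change was -0.44 ± 0.11 (SE; edgeR adjusted p = 0.0074). RRP9 was lower than under 4 of the other 5 mimics too, the exception being miR-380-3p (log2 change -0.21, adjusted p = 0.18 by edgeR).

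NOP56, a core box C/D protein, held 473, 467, 483 and 441 CPM in the controls and 541, 528, 536 and 481 CPM under miR-99b-5p. Mimic replicate 7 lay just below the highest control, and the rise was 0.16 ± 0.049 (edgeR adjusted p = 0.023). The call ended without control replicate 5 (0.14) and without miR-99b-5p replicate 2, 3 or 4 (0.15, 0.16 and 0.15). FBL, the methyltransferase of the box C/D particles, held 315, 325, 330 and 289 CPM in the controls and 385, 407, 368 and 349 CPM under miR-485-3p. All 4 mimic libraries were above the controls, by 0.26 ± 0.062 (SE; edgeR adjusted p = 0.0031). NOB1, the nuclease that makes the final cut at the end of 18S ribosomal RNA, held 54.7, 59.5, 62.0 and 63.4 CPM in the controls and 77.8, 74.4, 70.7 and 75.4 CPM under miR-485-3p. It rose by 0.32 ± 0.077 with no overlap (edgeR adjusted p = 0.0038).

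The other 7 genes of that group were called under no mimic. They are NOP58, a core box C/D protein, WDR43, UTP15 and HEATR1 of the early processome, UTP20 of the later processome, and RRP12 and BYSL, which act in small subunit maturation. Their log2 changes ran from -0.13 for RRP12 under miR-100-3p to 0.26 for BYSL under miR-485-3p, where the adjusted p for BYSL was 0.084 by edgeR.

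Of the box H/ACA particles, which convert uridine to pseudouridine, DKC1 alone was called. DKC1, the pseudouridine synthase, measured 193, 199, 200 and 195 CPM in the controls and 156, 170, 164 and 163 CPM under miR-100-3p. The groups were tight and well apart, with a log2 change of -0.27 ± 0.050 (SE; edgeR adjusted p = 0.0011). DKC1 was also lower under miR-100-3p than under each of the other 5 mimics, by -0.37 to -0.21 (largest adjusted p = 0.0025 by edgeR). It has no miR-100-3p match in its UTR. Its partners NHP2 and GAR1 were not called under any mimic, with log2 changes of -0.015 and -0.10 under miR-100-3p.

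Among the nucleolar shuttling and structural proteins, DDX21 fell under miR-485-3p and NOLC1 rose. DDX21 (ENSG00000165732), an RNA helicase that acts in ribosomal transcription and processing, measured 319, 311, 301 and 322 CPM in the controls and 189, 145, 192 and 227 CPM with the mimic. The highest mimic library lay well below the lowest control. Its log2 change was -0.74 ± 0.097 (SE; edgeR adjusted p = 3.1e-06), and it was lower than under each of the other 5 mimics by -0.81 to -0.66 (largest adjusted p = 8.7e-06 by edgeR).

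The UTR of DDX21 also has a match to miR-380-3p, which begins a few bases past the miR-485-3p match, and one to miR-100-3p. Under those mimics its log2 changes were 0.075 (adjusted p = 0.69) and -0.074 (adjusted p = 0.74, both by edgeR). NOLC1, a chaperone of nucleolar particles, held 331, 340, 325 and 334 CPM in the controls and 409, 356, 408 and 409.5 CPM under miR-485-3p. Replicate 2 was the low library, still above the controls, and the rise was 0.25 ± 0.064 (edgeR adjusted p = 0.0056). NCL, NPM1 and GNL3, the last a nucleolar GTPase, were called under no mimic. NPM1 came closest under miR-99b-5p with 0.23 ± 0.084 (adjusted p = 0.057 by edgeR), and its 27 pseudogene rows held 0.301% of NPM1 and copy counts in the controls.

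**Figure D2:**
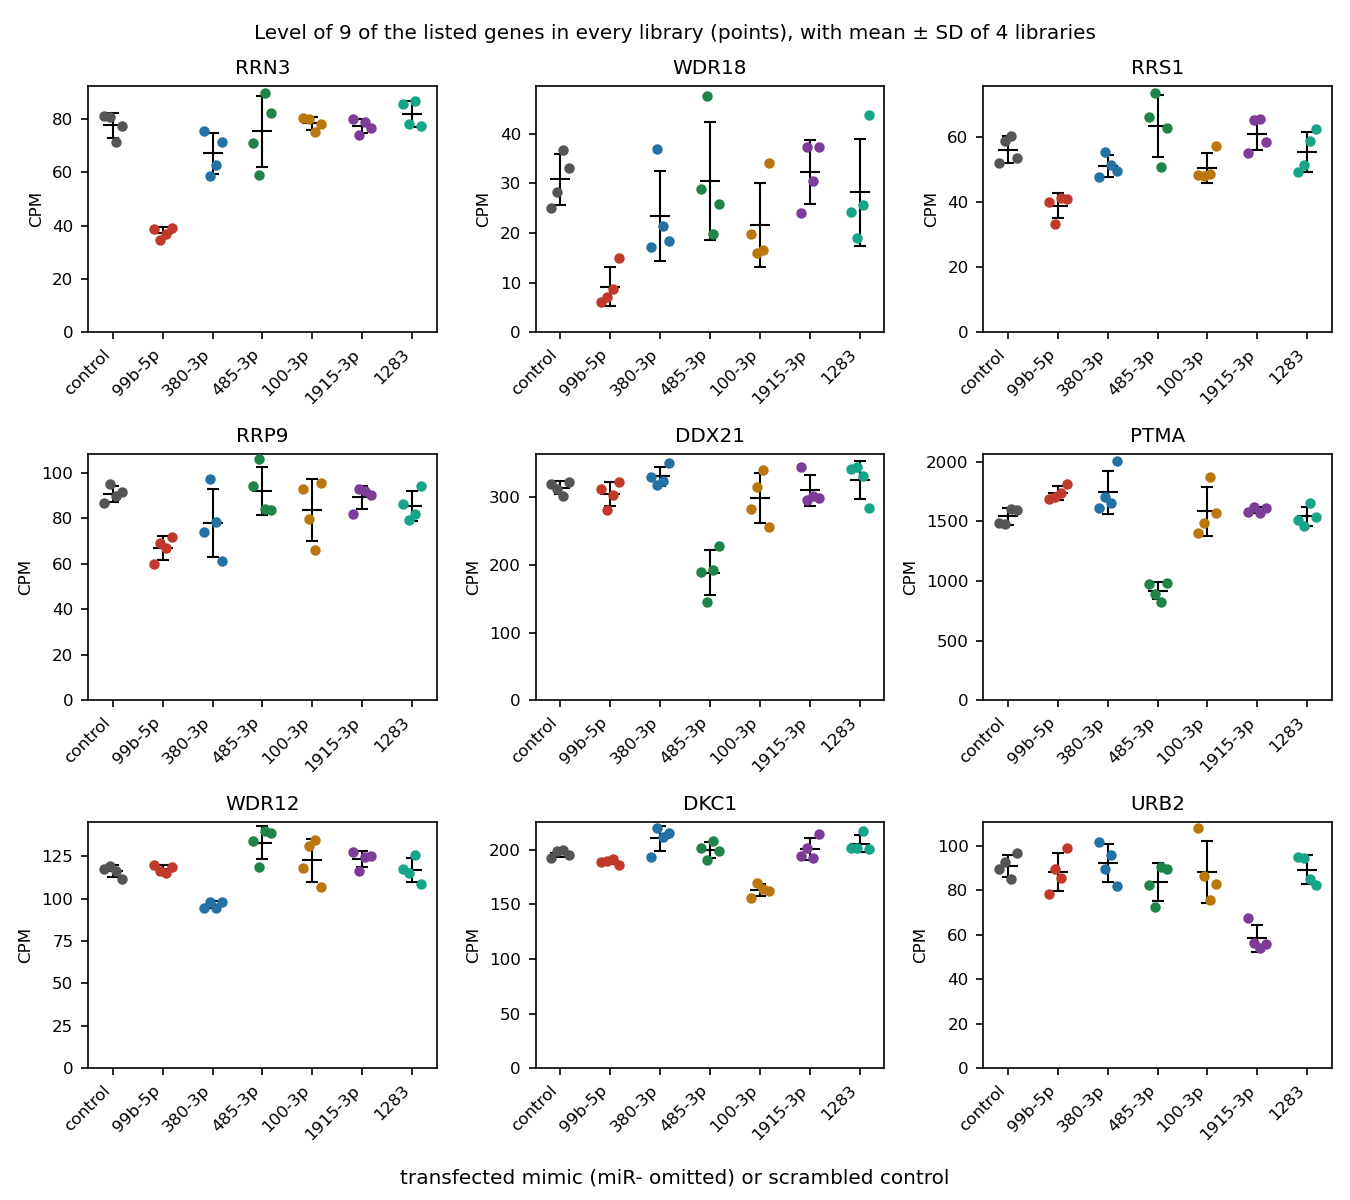
Level in CPM (linear axis from 0) of 9 members in each of the 28 libraries, as points coloured by group, with black marks for the mean and SD of 4 libraries. RRN3 is low in the 4 miR-99b-5p libraries (34.5 to 39.0 CPM), PTMA and DDX21 in the 4 miR-485-3p libraries and URB2 in the 4 miR-1915-3p libraries, whereas WDR18 varies widely in every group.

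Among the large subunit factors, RRS1 fell under miR-99b-5p, WDR12 under miR-380-3p, NIP7 under miR-100-3p and URB2 under miR-1915-3p. RRS1, which helps load the 5S ribonucleoprotein, measured 51.8, 58.6, 60.4 and 53.3 CPM in the controls and 39.9, 33.2, 41.2 and 41.0 CPM under miR-99b-5p. Replicate 3 was the lowest, and no mimic library reached the controls. The log2 change was -0.53 ± 0.10 (edgeR adjusted p = 0.00049), and RRS1 was lower than under each of the other 5 mimics as well, by -0.70 to -0.38 (largest adjusted p = 0.0066 by edgeR).

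WDR12, PES1 and BOP1 form the PeBoW complex of large subunit processing. WDR12 held 117, 119, 116 and 111 CPM in the controls and 94.7, 98.1, 94.5 and 98.3 CPM under miR-380-3p. The drop was the same in all 4 libraries, with a log2 change of -0.27 ± 0.065 (SE; edgeR adjusted p = 0.0072). WDR12 was lower under miR-380-3p than under each of the other 5 mimics, by -0.46 to -0.28 (largest adjusted p = 0.0049 by edgeR). Under miR-485-3p it was higher by 0.20 ± 0.065 (edgeR adjusted p = 0.033), and this call ended without control replicate 1, 4 or 5 (0.20, 0.20 and 0.18) or miR-485-3p replicate 1, 3 or 5 (0.19, 0.15 and 0.16).

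BOP1 measured 137, 162, 170 and 175 CPM in the controls and 86.3, 115, 123 and 135 CPM under miR-99b-5p. All 4 mimic libraries were lower, by -0.49 ± 0.18 (SE), but the adjusted p was 0.061 by edgeR. It passed with DESeq2 (log2 change -0.49). PES1 was called under no mimic, and its log2 changes ran from -0.076 to 0.048.

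URB2 (ENSG00000135763), which acts early in large subunit assembly, measured 89.5, 92.7, 85.2 and 97.0 CPM in the controls and 67.5, 56.3, 54.2 and 55.9 CPM under miR-1915-3p. Mimic replicate 1 was the highest of the 4 and below every control. Its log2 change was -0.64 ± 0.10 (SE; edgeR adjusted p = 0.00090). It was lower than under each of the other 5 mimics, by -0.66 to -0.52 (largest adjusted p = 0.0016 by edgeR). A title suffix of unstated meaning sets replicates 1 and 4 of that mimic apart, and without both the log2 change was -0.73. The paired gene of the same complex, URB1, was not called (-0.10).

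NIP7, a pre-ribosomal RNA-binding factor, held 45.5, 50.9, 49.7 and 44.9 CPM in the controls and 43.1, 37.1, 39.2 and 38.5 CPM under miR-100-3p. The groups did not overlap but lay close, with a log2 change of -0.27 ± 0.072 (SE; edgeR adjusted p = 0.022). The call ended without control replicate 2 or 4 (-0.24 and -0.25) and without miR-100-3p replicate 2, 3 or 4 (-0.24, -0.27 and -0.26). NOP2, a methyltransferase of 28S ribosomal RNA, NOP16, MRTO4 and PPAN were called under no mimic. PPAN showed -0.29 under miR-99b-5p (adjusted p = 0.13 by edgeR), and its read-through row with P2RY11 held 5.19% of their joint counts in the controls and 3.10% with that mimic.

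In the rixosome, which cuts the internal spacer of the precursor, WDR18 had the largest log2 change of any member in these 6 comparisons and also the widest spread. It measured 25.1, 28.3, 36.6 and 33.1 CPM in the controls and 6.11, 7.07, 8.66 and 15.0 CPM under miR-99b-5p. Replicate 7 was the highest of the 4 mimic libraries and still below the lowest control. The log2 change was -1.74 ± 0.32 (SE; edgeR adjusted p = 0.00029), and -2.08 without replicate 7. WDR18 was lower than under each of the other 5 mimics, by -1.81 to -1.25 (largest adjusted p = 0.0047 by edgeR). Against the control its log2 changes under miR-100-3p and miR-380-3p were -0.49 and -0.39, neither called. It has no miR-99b-5p match in its UTR. Its partners LAS1L, the nuclease of the complex, and TEX10 showed 0.022 and 0.0071 under miR-99b-5p, and neither was called under any mimic.

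The members that fell under miR-99b-5p without a seed match were rich in G and C. The longest transcript of WDR18 has 65.9% GC, that of RRP9 60.9% and that of RRS1 56.3%, against a median of 50.1% over the members and 48.3% over tested genes. BOP1 has 65.2% and PPAN 63.2%, and neither was called in the main fit. Other members richer in GC than RRS1 were not called either. RRP12 (58.6%), PES1 (58.2%), BYSL (57.1%) and NHP2 (57.1%) showed log2 changes of -0.023, -0.020, 0.19 and -0.17 under miR-99b-5p. The slope of expression on GC content, in log2 units per 10 percentage points of GC relative to the mean of all libraries, was -0.071 ± 0.097 (SD, n = 4) in the miR-99b-5p libraries and 0.042 ± 0.066 in the controls. With that slope of each library in the fit, WDR18, RRS1 and RRP9 stayed called, at -1.40, -0.44 and -0.32, and RRN3, of 41.5% GC, showed -1.13.

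Outside the nucleolus, PTMA fell under miR-485-3p and ODC1 rose under miR-380-3p. PTMA (ENSG00000187514), which encodes prothymosin alpha, measured 1483, 1481, 1605 and 1597 CPM in the controls and 971, 896, 827 and 981 CPM under miR-485-3p. All mimic libraries were far below the controls. The log2 change was -0.75 ± 0.076 (SE; edgeR adjusted p = 4.5e-08), and it was lower than under each of the other 5 mimics, by -0.93 to -0.75 (largest adjusted p = 3.7e-08 by edgeR). ODC1, the rate-limiting enzyme of polyamine synthesis, held 749, 746, 675 and 700 CPM in the controls and 842, 878, 809 and 867 CPM under miR-380-3p. The mimic libraries were all higher, by 0.24 ± 0.067 (SE; edgeR adjusted p = 0.018), and the call ended without control replicate 4 or 5 (0.21 and 0.23) or mimic replicate 4 (0.23).

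Direct comparisons of mimics were also tested over all genes. Between miR-99b-5p and miR-485-3p, 14 members differed, or 35% of the list beside 33.5% of all genes. Between miR-485-3p and miR-100-3p 12 differed (30% beside 28.5%), and between miR-380-3p and miR-485-3p 10 (25% beside 29%). Those shares were near the rate of all genes. The second count fell to 7 without miR-485-3p replicate 1, to 5 without replicate 3 and to 6 without miR-100-3p replicate 2, and the last to 5 without miR-485-3p replicate 1. In a single test of any difference among the 7 groups, 17 of the 40 members passed at an adjusted p under 0.05, beside 48.7% of all tested genes.

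The remaining pairs gave fewer calls. For miR-99b-5p they numbered 7 against miR-380-3p (beside 24% of all genes), 9 against miR-100-3p (beside 23.4%), 7 against miR-1915-3p (beside 19.1%) and 5 against miR-1283 (beside 15.3%). For miR-380-3p there were 4 against miR-100-3p (beside 17.4%), 4 against miR-1915-3p (beside 14.5%) and 3 against miR-1283 (beside 11.6%). For miR-485-3p there were 8 against miR-1915-3p (beside 23.1%) and 5 against miR-1283 (beside 19.5%). For miR-100-3p there were 5 against miR-1915-3p (beside 11.4%) and 2 against miR-1283 (beside 5.8%). Between the last 2 mimics, miR-1915-3p and miR-1283, 1 member differed (beside 0.252%), which was URB2.

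Seed matches in the UTR were found in 21 of the 240 combinations of member and mimic. Of these 21, 5 were called lower, which are the members printed above, and of the 219 without a match 5 were called lower (RRP9, RRS1 and WDR18 under miR-99b-5p, DKC1 and NIP7 under miR-100-3p). These counts pool mimics that differ widely in their calls. Over all tested genes the share called lower ran from 0.0199% under miR-1283 to 10.6% under miR-485-3p. The same split by match was not counted over all genes, so an effect of a match was not tested. Most matches went with no call. POLR1A has a match to miR-485-3p, in 1 of 2 coding transcripts, and showed 0.15 (adjusted p = 0.18 by edgeR). RRN3, NOLC1 and DDX21 have a miR-380-3p match, and DDX21 and NOP2 a miR-100-3p match. POLR1A, NOP56, RRP12 and NOP16 have a miR-1915-3p match, with log2 changes of -0.079, 0.18, -0.10 and -0.026, none called. Under miR-1283, 6 members have a match (POLR1A, UBTF, UTP15, UTP20, WDR12 and ODC1) and their log2 changes lay between -0.050 and 0.021.

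The share of members with a UTR match was 2.5% for miR-99b-5p, 10% for miR-380-3p, 7.5% for miR-485-3p, 5% for miR-100-3p, 12.5% for miR-1915-3p and 15% for miR-1283. The shares over 12532 tested genes with a UTR were 1.26%, 15.05%, 14.3%, 10.5%, 23.1% and 20.8%. A match is a string of letters on 1 transcript and does not show that the mimic bound there.

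**Figure D3:**
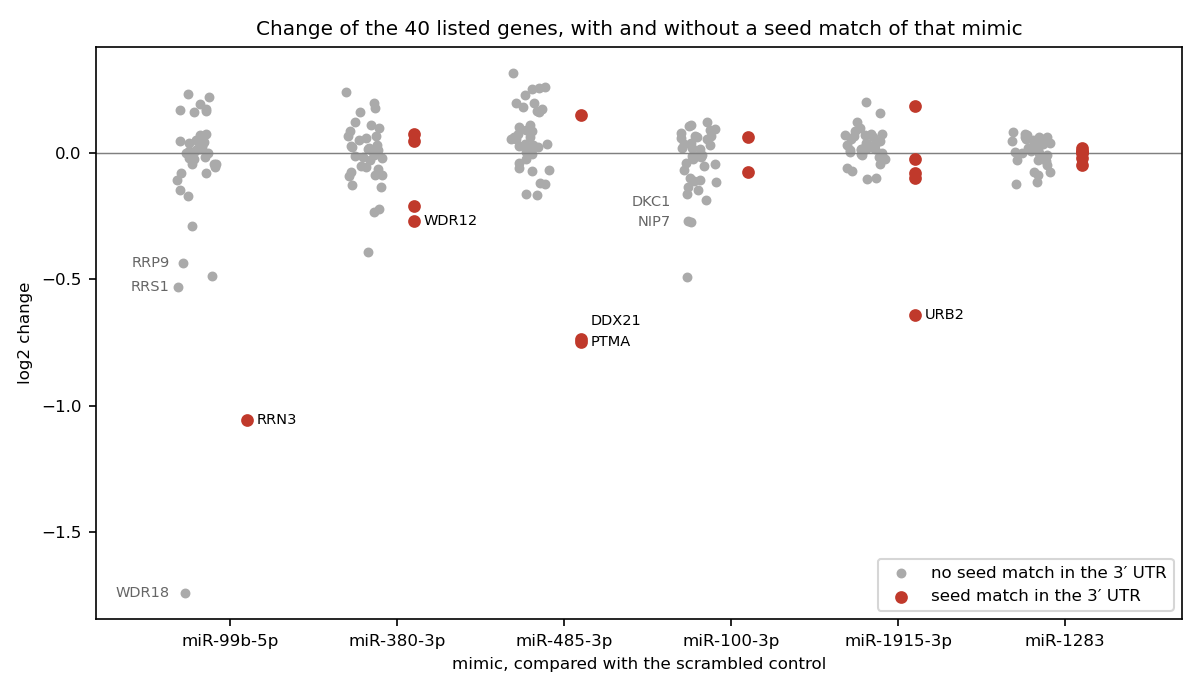
Log2 change against the control (vertical axis) of the 40 members under each mimic (horizontal axis), with red points for members that have a seed match of that mimic in the 3′ UTR and grey points for those that have none. Members called lower are named. The 5 named red points are RRN3, WDR12, DDX21, PTMA and URB2, and all 6 red points of miR-1283 lie near 0.

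MYCN itself went down under 3 of the mimics and up under another, while the member medians stayed near 0. It was 5053 ± 206 CPM (SD, n = 4) in the controls and 3429 ± 227 CPM under miR-99b-5p, a log2 change of -0.56 (edgeR adjusted p = 1.7e-05). It fell by 0.32 under miR-380-3p (adjusted p = 0.010) and by 0.40 under miR-1915-3p (adjusted p = 0.024), and rose by 0.34 under miR-100-3p (adjusted p = 0.012, all by edgeR). Its log2 changes under miR-485-3p and miR-1283 were -0.22 and -0.093, with adjusted p = 0.061 and 1 by edgeR. MAX, the partner of MYCN, was not called under any mimic against the control, and MYC, with a control mean of 0.056 CPM, was not among the tested genes.

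**Figure D4:**
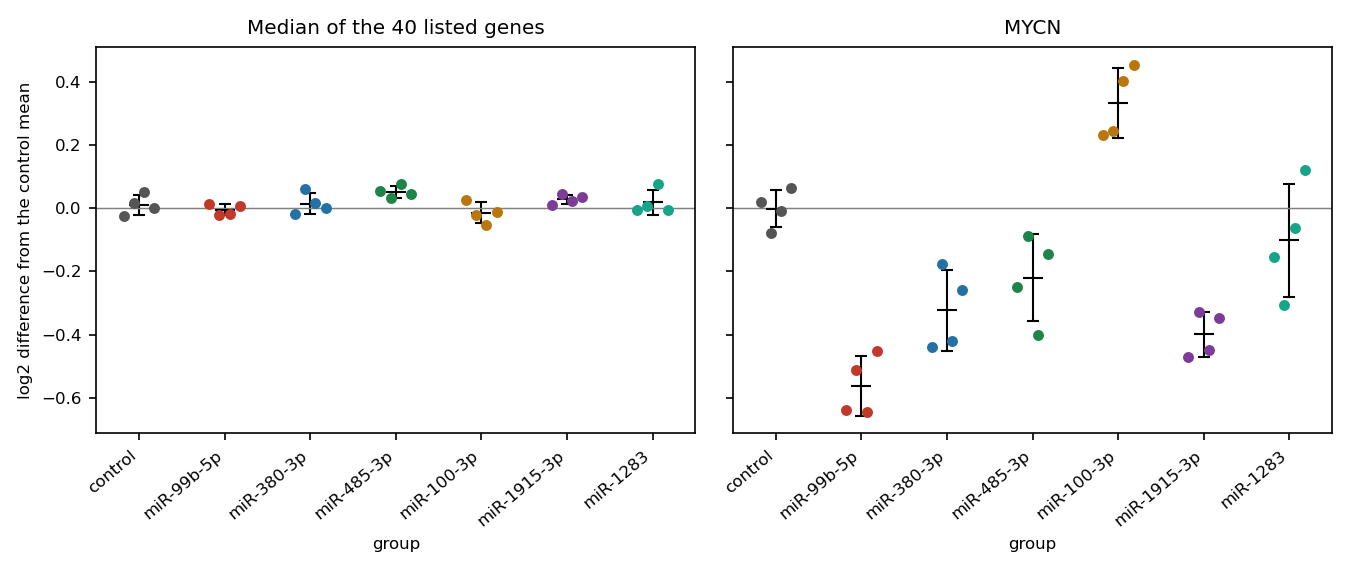
Log2 difference from the control mean, per library (points) with mean and SD of 4 libraries, of the median over the 40 members (left) and of MYCN (right), by group on 1 shared axis. The member medians of all 28 libraries stay within a narrow band at 0, and MYCN is lowest in the miR-99b-5p libraries and highest in the miR-100-3p libraries.

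The letters CACGTG, the E-box bound by MYC family proteins and its own reverse complement, were searched in RefSeq promoter windows (GRCh38.p14) from 250 bases before to 50 after each gene start. A window was found for 34 members, and 13 of them (38.2%) had the letters, against 12.7% of 10925 tested genes. By window the shares were 28.9% of 45 member windows, 9.4% of 15965 windows of tested genes and 7.3% of all 35116 windows. The looser CANNTG, which contains CACGTG, was in 68.9% of member windows, 61.2% of windows of tested genes and 68.7% of all windows, and by gene in 73.5% of the 34 members and 67.0% of tested genes. The 13 are FBL, RRP9, WDR43, UTP20, BYSL, GAR1, DDX21, GNL3, PES1, NOP2, MRTO4, TEX10 and ODC1. Under miR-99b-5p, with MYCN at its lowest, 1 of these 13 was called lower (RRP9) and none higher, with a median log2 change of 0.0071. Of the 21 members without the letters 1 was called higher and 2 lower, with a median of 0.017. Among all tested genes 8.11% were called higher and 8.48% lower under that mimic. The part of MYCN in these values was not tested. A match is a description of letters and not of binding.

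A wider list of 97 other ribosome biogenesis genes, all of them tested, had median log2 changes of 0.0097 to 0.046 over the 6 mimics. Under miR-99b-5p 4 rose and 7 fell, led by the RNA helicase gene DDX49 (-1.52), NOL9 (-0.55), a kinase of pre-ribosomal RNA, and EBNA1BP2 (-0.47). Under miR-485-3p 9 rose and 4 fell, led by NOL6 (-0.80), UTP4 (0.27) and PNO1 (0.38), which act in the small subunit pathway, and these 13 calls became 8 without control replicate 1 and 7 without miR-485-3p replicate 3. Under miR-380-3p SDAD1 (-0.45) and NMD3 (-0.42), the export adaptor of the large subunit, fell, and leaving out any of control replicates 1, 2 and 5 or any of mimic replicates 2, 3 and 4 left 1 of these 2 calls. DDX52 rose under miR-100-3p (0.34), and the count there was 6 without replicate 1 and 0 without replicate 3. NOL10 fell under miR-1915-3p (-0.42), a call that ended when control replicate 2 or 5, or mimic replicate 3 or 4, was left out. None of the 97 was called under miR-1283 by edgeR, DESeq2 or limma-voom, and 0 reached an unadjusted p under 0.05. In the main fit the share of the 97 called was below that of all tested genes under every mimic but miR-1915-3p. Among all tested genes, 16.6% were called for miR-99b-5p, 21.1% for miR-485-3p, 10.9% for miR-380-3p and 5.96% for miR-100-3p. It was 0.246% for miR-1915-3p, beside NOL10 alone, and the gap for miR-1283 (0.0199%) is smaller than 1 gene. The order for miR-100-3p was the reverse without its replicate 1 (448 higher and 452 lower of 15199 tested).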

How the data were processed

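RNA sequencing of messenger RNA was analysed from the deposited table of expected counts per gene, of which 10.2% of the values are not whole. Reads were aligned to hg19 with STAR, per the submitters' processing notes, which give no version. The counting tool, the annotation and the filter behind the table are not given in the sources used here. The deposited table also gives a gene length, stored among the signal values, that was used for levels per kilobase. No column was left without a sample.

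Expected counts were rounded, genes were kept with filterByExpr, and edgeR 4.0.16 (R 4.3.3) was fitted with TMM scaling to all 28 libraries (21 residual degrees of freedom, dispersion 0.015). Tests were two-sided quasi-likelihood tests with Benjamini-Hochberg adjustment over the 15058 genes. CPM are given as mean ± SD of 4 libraries. The fit recovered the larger of the changes set in simulated counts when tested. Changes as small as most of those called here were not simulated. Depth of 10.99 to 23.3 M counts per library and 4 libraries per group set the precision. DESeq2 1.42.0, limma-voom (limma 3.58.1), other scalings, filters and references, a replicate block and leaving out each library were the alternatives.

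Seed matches used the longest 3′ UTR of at least 50 bases, and promoter windows matched 34 of 40 members by symbol. Of the wider list, 8 genes were matched by identifier under an older symbol. The members, lists and tests were chosen with earlier results of these data known. Every member is named, and values per library are given for a member called under a mimic among its 5 smallest adjusted p or with a log2 change of at least 0.5 in size. Of the wider list, up to 3 called genes with the smallest adjusted p under each mimic are named. BOP1 is given per library although outside that rule, chosen after its values were seen. Replicate numbers in the titles were shared by 17 pairs of a control and a mimic library. Their deviations correlated from -0.092 to 0.303 with a median of 0.113, and 9 of the 17 exceeded 0.1. Pairs with unlike numbers ran from -0.33 to 0.35, and a smaller share of them exceeded 0.1. These values do not settle whether the numbers mark a shared batch, and the titles do not say. The libraries were therefore not paired in the main fit, and the replicate block was run as an alternative. No 2 libraries agreed within sampling noise (smallest ratio of chi-square to its degrees of freedom 2.89). One marker of the list used to check the cell type is not reported here.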

Additional observations from a re-analysis of the deposited data

Results flagged for a closer look

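In 3 called members and in 1 group of library medians, a single library stood far from the other 3 of its group, by the gap to the nearest library divided by the range of the group, against Dixon's limit at the 95% level. RRS1 under miR-99b-5p gave a ratio of 0.849, from replicate 3 at 33.2 CPM. NOLC1 under miR-485-3p gave 0.971, from replicate 2 at 356 CPM, and URB2 under miR-1915-3p gave 0.832, from replicate 1 at 67.5 CPM. The median deviation of the 40 members in the miR-1283 libraries gave 0.832, from 1 library at 0.078. Chance alone passes this limit in about 1 of 20 groups, and 4 of the 40 groups examined passed it.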

How the results depend on the processing

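Of the 17 calls of members, 12 held under every alternative counted for them (19 each, 20 for URB2). NOP56, ODC1, POLR1B, NIP7 and the rise of WDR12 did not. Not every fit that was run is counted for each call. Depth and 4 libraries a group leave changes near the median SE of 0.0785, and some well above it, unresolved. Counts are of members called against the control unless said. The replicate block gave 9 for miR-99b-5p (4 higher, 5 lower), moved no other count of members past 1.5 times, and ended the calls of POLR1B (0.19) and WDR12 (0.17) under miR-485-3p. Fits of only the 8 libraries compared gave 8 for miR-99b-5p, 1 for miR-100-3p and 8 of the wider list for miR-485-3p. In direct comparisons they gave 5 for miR-99b-5p with miR-100-3p, 4 for miR-380-3p with miR-485-3p and 1 with miR-1283, 3 for miR-485-3p with miR-100-3p, 4 with miR-1915-3p and 2 with miR-1283, and 1 for miR-100-3p with miR-1283. With the GC slope as a covariate the counts were 11 for miR-99b-5p, 12 for miR-485-3p and 2 for miR-1915-3p, and of the wider list 19 for miR-99b-5p, 7 for miR-380-3p, 27 for miR-485-3p and 3 for miR-100-3p. Calls over all genes rose in that fit as well. For miR-99b-5p they were 1768 higher and 1743 lower (1221 and 1277 in the main fit). For miR-485-3p they were 2565 and 2324 (1574 and 1602), and for miR-1915-3p 53 and 130 (2 and 35). Direct comparisons then gave 13 for miR-99b-5p with miR-380-3p, 15 with miR-100-3p and 9 with miR-1283, 7 and 9 for miR-380-3p with miR-100-3p and miR-1915-3p, 14 and 11 for miR-485-3p with miR-1915-3p and miR-1283, and 8 and 4 for miR-100-3p with the same mimics. With the other 5 mimics as reference the counts were 10 with miR-99b-5p, 7 with miR-380-3p, 14 with miR-485-3p, 6 with miR-100-3p, 5 with miR-1915-3p and 1 with miR-1283, and 17, 9, 27, 9 and 3 of the wider list for the first 5. Calls over all genes rose under every mimic with that reference, to 2826 higher and 2332 lower for miR-485-3p and to 153 and 100 for miR-1283. There the member median for miR-485-3p was 0.081, and RRN3 reversed to 0.20 under miR-485-3p and 0.24 under miR-1915-3p. That reference includes miR-99b-5p, where RRN3 is low. Without a low-count filter 1 member was called for miR-380-3p and 1 for miR-100-3p, 8 of the wider list for miR-485-3p, and in direct comparisons 6 for miR-380-3p with miR-485-3p, 5 for miR-485-3p with miR-100-3p, 4 with miR-1915-3p and 3 with miR-1283, and 1 for miR-100-3p with miR-1283. A mean CPM of at least 5 gave medians of -0.016 for miR-99b-5p and 0.033 for miR-485-3p. Upper-quartile scaling gave a median of 0.021 for miR-485-3p and counts of 6 for miR-485-3p with miR-100-3p and 1 for miR-100-3p with miR-1283, and library size scaling gave 1 for miR-380-3p with miR-1283. DESeq2 called 2 members for miR-1915-3p and 4 of the wider list for miR-100-3p. Without the 2 suffixed libraries, 0 of the wider list were called for miR-1915-3p, and 5 and 3 members for miR-485-3p and miR-100-3p with it. The cause of these shifts was not tested. Leaving out 1 library at a time gave 4 to 9, 1 to 3, 5 to 8, 1 to 2, 1 to 1 and 0 to 0 members for the 6 mimics in the order above, and 8 to 13, 1 to 3, 7 to 18, 0 to 6, 0 to 1 and 0 to 0 of the wider list. The medians then ran from -0.019 to 0.014, -0.0044 to 0.015, 0.042 to 0.071, -0.014 to 0.014, 0.0085 to 0.038 and 0.0018 to 0.051. Direct comparisons of miR-99b-5p with the other 5 in that order gave 5 to 8, 12 to 14, 6 to 10, 5 to 8 and 3 to 6, and those of miR-380-3p with the next 4 gave 5 to 11, 4 to 6, 4 to 5 and 1 to 3. Those of miR-485-3p gave 5 to 14, 5 to 8 and 3 to 7, those of miR-100-3p 4 to 6 and 1 to 3, and miR-1915-3p with miR-1283 1 to 1.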
